A study of Mus musculus with 6 samples.

Results

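The genes described here were 10 members of the BCL2 family in cultured mouse retinal ganglion cells (RGCs), the neurons that send the axons of the optic nerve. They were taken by symbol from 43346 Ensembl mouse genes, with earlier results of these data known. The set held 4 pro-survival genes (*Bcl2*, *Bcl2l1*, *Bcl2l2* and *Mcl1*), 2 effectors (*Bax* and *Bak1*) and 4 BH3-only genes (*Bcl2l11*, *Bbc3*, *Pmaip1* and *Hrk*). The effectors and BH3-only genes together are called the 6 pro-death genes below. All 10 passed the filter on low counts, with between 58 and 5949 counts per gene and library, and were among the 15747 genes tested.

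RNA was sequenced from 3 groups of RGCs with 2 replicates each. The control cells received an AAV (adeno-associated virus, a gene delivery vector) with EGFP alone, the second group an AAV with Sox11 followed by IRES-EGFP, and the third an AAV with Sox11 K91A and IRES-EGFP, in which the lysine at position 91, the site where SUMO is attached, is replaced by alanine. Sox11 is a transcription factor of developing neurons. Cells of all groups were purified by immunopanning on CD90.1 (Thy1), plated at 250000 per well in medium with forskolin, BDNF at 50 ng/ml and CNTF at 10 ng/ml, and received 1.5 μl of virus at 4 h, at 100000 vector genomes per cell. RNA was taken at 72 h. The age of the cells is given as embryonic day 18 for the sequenced cultures and postnatal day 2 in the general description of the cultures, and the names of the deposited tables carry postnatal day 0. The promoter of the vectors is not given in the sources used here. No source says that the replicates of a group came from separate cultures, so the p-values measure only the spread between these libraries. That spread may be technical for Sox11 K91A, while the replicates of the control and of Sox11 also differed in the levels of *Xist* and of genes on the Y chromosome.

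BCL2 family proteins set the threshold for cell death at the outer membrane of mitochondria. BAX and BAK open pores in that membrane, which releases cytochrome c, while BCL2, BCL-xL (from *Bcl2l1*), BCL-w (from *Bcl2l2*) and MCL1 hold them in check. BH3-only proteins answer stress by binding the pro-survival proteins or by activating the effectors directly, and several are set mainly by transcription. In RGCs the loss of *Bax* is known to spare the cell bodies after optic nerve injury, and extra BCL2 is known to reduce their death.

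Upstream promoter sequence is shown for 3 members that stand for the different behaviours described below. *Bcl2* rose with both viruses, *Bcl2l11* was higher with both without passing the test, and *Bax* is the effector with the highest level. Each line gives the 250 bases before the transcription start in RefSeq on GRCm38.p6, 5′ to 3′ on the strand of the gene, and none of these bases lies in an exon of GENCODE M21. Capitals mark the FOXO motif GTAAACA in *Bcl2l11* and a match to the p53 half-site in *Bax*.
Bcl2, chr1:106714291-106714540, minus strand: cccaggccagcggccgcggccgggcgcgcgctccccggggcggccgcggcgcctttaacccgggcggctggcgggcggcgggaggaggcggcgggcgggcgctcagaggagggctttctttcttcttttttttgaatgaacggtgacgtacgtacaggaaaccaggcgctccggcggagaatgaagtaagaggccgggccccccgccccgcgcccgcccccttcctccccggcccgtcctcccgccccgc
Bcl2l11, chr2:128125788-128126037, plus strand: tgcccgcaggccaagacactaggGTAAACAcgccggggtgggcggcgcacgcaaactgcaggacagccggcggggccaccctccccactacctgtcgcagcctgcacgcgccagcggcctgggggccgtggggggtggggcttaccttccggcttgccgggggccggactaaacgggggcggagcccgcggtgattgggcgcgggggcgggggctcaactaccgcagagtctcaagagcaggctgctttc
Bax, chr7:45466899-45467148, minus strand: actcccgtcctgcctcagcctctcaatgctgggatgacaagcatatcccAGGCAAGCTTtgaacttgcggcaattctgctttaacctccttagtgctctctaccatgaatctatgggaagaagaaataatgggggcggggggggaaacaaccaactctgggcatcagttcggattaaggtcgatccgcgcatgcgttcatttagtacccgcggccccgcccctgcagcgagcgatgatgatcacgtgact
On GRCm38, GENCODE M21 places *Bcl2* at chr1:106538178-106714274, *Bcl2l11* at chr2:128126038-128162547 and *Bax* at chr7:45461697-45466898. The GC content of the printed bases was 74.8% for *Bcl2*, 72.0% for *Bcl2l11* and 54.0% for *Bax*. The motif in *Bcl2l11* began 227 bases before the start, and the match in *Bax* 201 bases before it.

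Short motifs were searched on both strands in the RefSeq promoter windows, which run from 250 bases before to 50 bases after each start. The members had 14 such windows from 9 genes, and *Pmaip1* was not searched. The Sox core motif AACAAT was present in 2 windows, 1 of *Bbc3* and 1 of *Bcl2l11*, and in 10.7% of all 32851 windows. The other Sox core motif, ACAAAG, was present in 1 window of *Bcl2l1* and 1 of *Bak1*, and in 18.7% of all windows. GTAAACA was present in 1 window of *Bbc3* and 1 of *Bcl2l11* against 3.65% of all windows, and the p53 half-site in 1 window of *Bax* against 8.36%. No member window held the AP-1 motif TGANTCA, present in 7.81% of all windows, or the CRE motif TGACGTCA, present in 1.79%. A match is a description of the letters and not a binding site, and *Bcl2*, which rose, held none of the 6 motifs in these windows.

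Depth was between 27521982 and 37061718 expected counts per library. Sox11 itself stood at 234 and 332 CPM (counts scaled to library size with TMM factors) in the control, at 9178 and 14591 CPM with Sox11 and at 11971 and 7026 CPM with Sox11 K91A, higher in each of the 4 libraries labelled with a Sox11 virus than in the control. RSEM gave each member's count with a posterior SD of at most 4.25 counts. Control replicate 2 and Sox11 replicate 2 stood apart from the other libraries. Their *Xist* levels were 95.9 and 254 CPM against between 400.4 and 526 CPM in the other 4 libraries, and those of *Ddx3y*, a gene on the Y chromosome, were 30.0 and 29.9 CPM against between 16.2 and 17.7 CPM. *Eif2s3y*, also on the Y chromosome, was at 25.1 and 33.9 CPM against between 7.66 and 12.6 CPM. On the second principal component (18.9% of the variance) the same libraries lay at -47.7 and -44.7 against between 21 and 27.2. Results that rest on these 2 libraries are given with and without them.

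Compared with the control, 2 of the 10 genes rose with Sox11, 1 on each side of the family. They were *Bcl2*, which blocks cell death, and *Pmaip1*, which encodes NOXA, a BH3-only protein that binds MCL1. The same 2 genes rose with Sox11 K91A. The other 8 genes did not pass the test in either comparison, and no member fell. A gene was called when its FDR in limma-voom was under 0.05 and its absolute fold change above 1.2. By this rule 20.1% of the 15747 genes were called with Sox11 (9.96% of them higher and 10.2% lower, as shares of all genes tested) and 10.6% with Sox11 K91A (5.81% higher and 4.81% lower). A count of 2 in 10 members matched the share of all genes called with Sox11 and was about 1 gene above that with Sox11 K91A, so the count itself is not a result about the family. Both comparisons used the same 2 control libraries, so they are not independent. Without control replicate 2 and Sox11 replicate 2, *Bbc3* and *Bcl2l2* were also called, which made 4 members with Sox11, and with Sox11 K91A *Bax* as well, which made 5. In that fit 13.1% of the 15928 genes tested were called with Sox11 and 25.8% with Sox11 K91A. The number of calls over all genes rested on single libraries too, since without Sox11 replicate 2 the Sox11 comparison called 0 of the genes tested, and without control replicate 2 the Sox11 K91A comparison called 0.

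**Figure D1:**
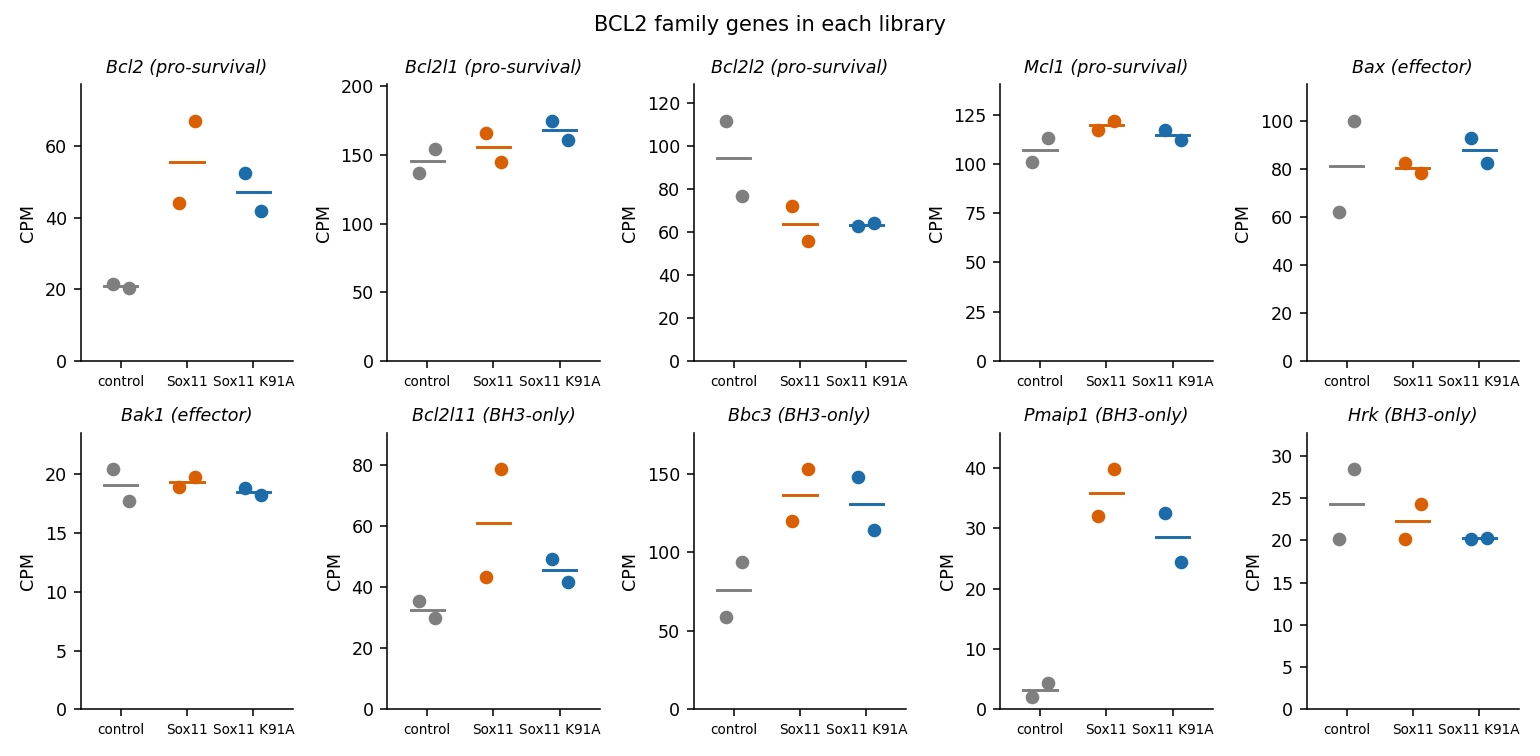
Level of each BCL2 family gene in CPM (vertical axes, each starting at 0) in the 6 libraries, with a point for each library (replicate 1 on the left) and a line at the mean of the 2 replicates. *Pmaip1* stood at 2.08 and 4.33 CPM in the control against between 24.5 and 39.8 CPM with either virus, and *Bcl2* at 21.4 and 20.5 CPM against between 42.0 and 67.2 CPM, while *Bak1* stayed between 17.7 and 20.4 CPM.

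Among the pro-survival genes, *Bcl2* was the member that changed. Its level was 21.4 and 20.5 CPM in the control (599 and 791 counts), 44.1 and 67.2 CPM with Sox11 (1211 and 2226 counts), and 52.5 and 42.0 CPM with Sox11 K91A (1693 and 1226 counts). All 4 transduced libraries lay above both controls, and the ranges of the 2 viruses overlapped. The fold change was 2.61 with Sox11 (log2 1.38, SE 0.24, 95% confidence interval 0.81 to 1.96, adjusted p = 0.016) and 2.25 with Sox11 K91A (log2 1.17, SE 0.24, interval 0.59 to 1.74, adjusted p = 0.033). The call with Sox11 was lost without control replicate 2 (log2 1.35, adjusted p = 0.058) or Sox11 replicate 2 (1.08, 0.088). With Sox11 K91A it was lost without any 1 of the 4 libraries compared, at log2 fold changes between 1.01 and 1.32. It was also lost with sample quality weights (adjusted p = 0.051), on log2(TPM + 1) (adjusted p = 0.067) and on log2(TPM + 0.1).

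*Bcl2l2* was the pro-survival gene that stood lower with both viruses, without passing the test. Its control libraries held 112 and 76.7 CPM, followed by 72.0 and 56.0 CPM with Sox11 and 62.7 and 64.2 CPM with Sox11 K91A. The lower control library was only a little above the highest transduced library, and the control replicates differed from each other more than the replicates of either other group. The log2 fold change was -0.55 in both comparisons (SE 0.21, interval -1.06 to -0.04), with an adjusted p of 0.111 for Sox11 and 0.139 for Sox11 K91A. Without control replicate 2 and Sox11 replicate 2 it was -0.63 (adjusted p = 0.035) and -0.81 (adjusted p = 0.0099), both past the threshold. With Sox11 it also passed without control replicate 2 alone (-0.82, adjusted p = 0.048), and without control replicate 1 it was -0.28 (0.276). In the fit without both libraries the lone control and Sox11 libraries are assumed to vary like the Sox11 K91A replicates.

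The most highly expressed pro-survival genes varied little. *Bcl2l1*, whose main product is BCL-xL, was at 137 and 154 CPM in the control, 166 and 145 CPM with Sox11 and 175 and 161 CPM with Sox11 K91A. Its log2 fold change was 0.09 (interval -0.25 to 0.44, adjusted p = 0.674) with Sox11 and 0.21 (-0.14 to 0.56, 0.383) with Sox11 K91A. *Mcl1*, which encodes a short-lived pro-survival protein, was at 101 and 113 CPM, 117 and 122 CPM, and 117 and 112 CPM in the same order, with log2 fold changes of 0.16 (interval -0.15 to 0.48) and 0.11 (-0.21 to 0.42). For both genes the intervals lie below the fitted change of *Bcl2*.

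Neither effector passed the test over all 6 libraries. *Bax*, the pore-forming protein on which RGC death depends, was at 62.3 and 100.4 CPM in the control, 82.8 and 78.5 CPM with Sox11 and 93.1 and 82.7 CPM with Sox11 K91A. The control libraries lay at the extremes and every transduced library between them. Its log2 fold change was 0.03 (interval -0.51 to 0.57, adjusted p = 0.940) with Sox11 and 0.15 (-0.39 to 0.69, 0.704) with Sox11 K91A. Without control replicate 1 the values turned to -0.31 and -0.19, and without control replicate 2 they were 0.37 (adjusted p = 0.113) and 0.50 (0.089). Without both control replicate 2 and Sox11 replicate 2, *Bax* was at 0.42 (0.108) with Sox11 and passed the threshold with Sox11 K91A at 0.50 (0.036). *Bak1*, the other pore-forming protein, was at 20.4 and 17.7 CPM, 18.9 and 19.7 CPM, and 18.8 and 18.2 CPM. Its log2 fold changes were 0.04 (interval -0.35 to 0.42) and -0.02 (-0.41 to 0.36). Of the exon bases of *Bak1*, 18.2% overlap *Ggnbp1* on the other strand, which held between 52 and 130 counts per library against between 519 and 681 for *Bak1*.

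The BH3-only genes held the largest change of the family. *Pmaip1* was at 2.08 and 4.33 CPM in the control, from 58 and 167 counts. It was at 32.0 and 39.8 CPM with Sox11 (879 and 1320 counts) and at 32.6 and 24.5 CPM with Sox11 K91A (1052 and 714 counts). The lowest transduced library was thus far above the highest control, and the groups with virus overlapped. *Pmaip1* rose 11.4-fold with Sox11 (log2 3.52, SE 0.38, interval 2.62 to 4.42, adjusted p = 0.011) and 9.06-fold with Sox11 K91A (log2 3.18, SE 0.38, interval 2.27 to 4.09, adjusted p = 0.014). By log2 fold change it ranked 106 of 15747 genes with Sox11 and 127 with Sox11 K91A. Over the 20 alternative fits the log2 fold change stayed between 3.05 and 4.10 with Sox11 and between 2.71 and 3.77 with Sox11 K91A. The call was lost without Sox11 replicate 2 (adjusted p = 0.062) in the first comparison, and without control replicate 2 (0.057) or Sox11 K91A replicate 1 (0.065) in the second.

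*Bbc3*, which encodes PUMA, a p53 target that binds every pro-survival protein of the family, was at 59.0 and 93.6 CPM in the control, 119.9 and 153 CPM with Sox11 and 148 and 114 CPM with Sox11 K91A. All 4 transduced libraries were above both controls, and the replicates of each group lay farther apart than the highest control and the lowest transduced library. The log2 fold change was 0.86 (SE 0.26, interval 0.25 to 1.48, adjusted p = 0.056) with Sox11 and 0.80 (SE 0.26, interval 0.19 to 1.41, adjusted p = 0.090) with Sox11 K91A, just outside the threshold in the first. Without control replicate 2 and Sox11 replicate 2 the values were 1.03 (adjusted p = 0.036) and 1.14 (adjusted p = 0.012), both past it. *Bbc3* also passed in DESeq2 (0.83, adjusted p = 0.018, and 0.77, 0.041) and, with Sox11, without control replicate 2 alone (1.2, 0.043). Without control replicate 1 it was 0.54 (0.127) and 0.47 (0.185). The length that RSEM assigned to *Bbc3* from its transcripts was 1333 and 1456 bases in the control, 1588 and 1631 bases with Sox11 and 1612 and 1511 bases with Sox11 K91A, so its mix of transcripts was estimated as longer in all transduced libraries.

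*Bcl2l11*, which encodes BIM, a BH3-only protein that neurons raise when trophic support is lost, was at 35.5 and 29.9 CPM in the control, 43.5 and 78.7 CPM with Sox11 and 49.3 and 41.9 CPM with Sox11 K91A. Sox11 replicate 2 was well above the rest, and the other 3 transduced libraries lay between 41.9 and 49.3 CPM. The log2 fold change was 0.85 with Sox11 (SE 0.28, interval 0.18 to 1.53, adjusted p = 0.073) and 0.49 with Sox11 K91A (SE 0.29, interval -0.19 to 1.17, adjusted p = 0.298). With Sox11 it passed in DESeq2 (0.89, adjusted p = 0.023) and without Sox11 replicate 1 (1.26, 0.018), whereas without Sox11 replicate 2 it was 0.43 (0.318) and without control replicate 2 as well 0.29 (0.285). *Hrk*, a BH3-only gene of neurons, was at 20.2 and 28.4 CPM in the control, 20.2 and 24.3 CPM with Sox11 and 20.2 and 20.3 CPM with Sox11 K91A. Its log2 fold changes were -0.12 (interval -0.62 to 0.37) and -0.26 (-0.76 to 0.24), and the groups overlapped in both comparisons.

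**Figure D2:**
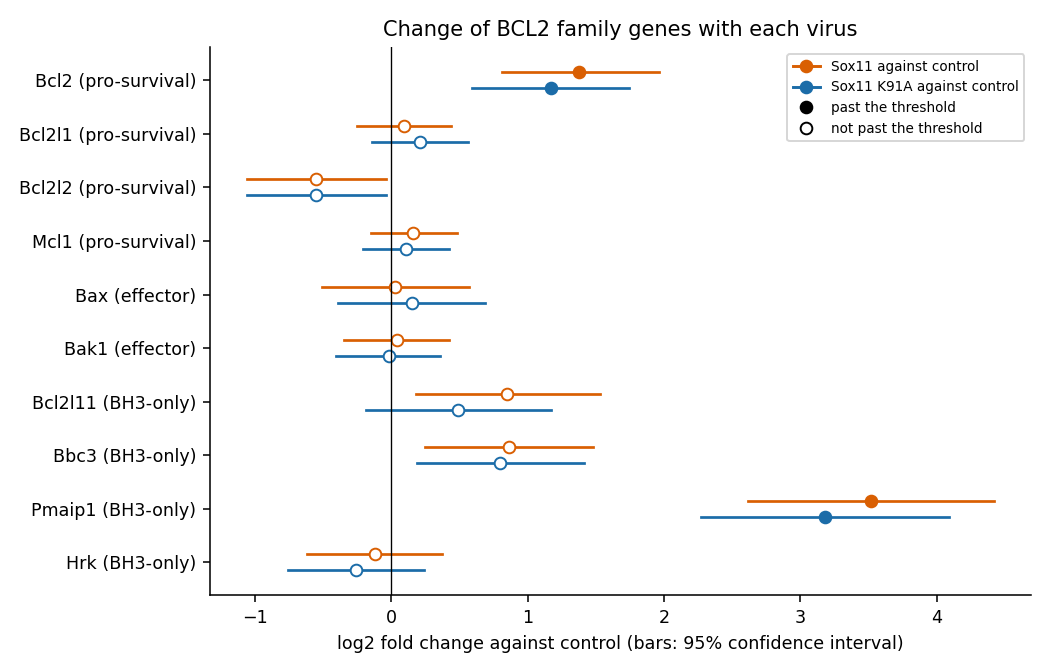
Log2 fold change against the control (horizontal axis) of each BCL2 family gene (vertical axis) with Sox11 and with Sox11 K91A, from limma-voom, with bars for the 95% confidence interval and filled points for genes past the threshold. *Bcl2* and *Pmaip1* are past the threshold with both viruses, at 1.38 and 1.17 and at 3.52 and 3.18, and the intervals of *Bcl2l1*, *Mcl1*, *Bax*, *Bak1* and *Hrk* include 0 in both comparisons.

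Counted by whether the libraries of the 2 groups overlapped in CPM, 5 members were higher with Sox11 than in both controls (*Bcl2*, *Mcl1*, *Bcl2l11*, *Bbc3* and *Pmaip1*), against 30.9% of all genes, and 1 was lower (*Bcl2l2*), against 30.6%. With Sox11 K91A the count was also 5 higher (*Bcl2*, *Bcl2l1*, *Bcl2l11*, *Bbc3* and *Pmaip1*), against 31.2%, and 1 lower (*Bcl2l2*), against 30.7%. By role, the median log2 fold change with Sox11 was 0.129 over the 4 pro-survival genes, 0.032 over the 2 effectors and 0.859 over the 4 BH3-only genes, beside 0.009 over all genes tested. With Sox11 K91A these medians were 0.159, 0.064 and 0.644, beside 0.017. Without regard to sign, the median gene of all those tested moved by a log2 value of 0.465 in the Sox11 comparison and 0.390 in the Sox11 K91A comparison.

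Levels were compared between genes as TPM, the RSEM unit that corrects for transcript length. In the control, *Bax* was the highest of the 10 genes at 236 ± 67.2 TPM (SD, n = 2), followed by *Bcl2l1* at 133 ± 1.51 and *Bbc3* at 121 ± 23.4 TPM, which overlapped each other. *Mcl1* at 67.5 ± 7.86 and *Bcl2l2* at 54.9 ± 17.8 TPM came next and also overlapped, ahead of *Bak1* at 21.2 ± 1.95, *Bcl2l11* at 14.2 ± 2.95 and *Hrk* at 8.79 ± 1.55 TPM. *Bcl2* was the ninth at 5.83 ± 0.481 TPM and *Pmaip1* the lowest at 2.44 ± 1.08 TPM, and neither overlapped with its neighbours. *Bcl2* was thus a minor part of the pro-survival mRNA of these cultures.

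With Sox11 the order changed mainly at *Pmaip1*, which stood sixth at 29.7 ± 4.86 TPM, level with *Bcl2l11* at 29.5 ± 9.97 TPM, whose range overlapped that of *Bak1* at 26.0 ± 1.97 TPM. *Bbc3* at 198 ± 31.9 TPM moved above *Bcl2l1* at 152 ± 16.4 TPM without overlap. *Bcl2* remained ninth, at 16.1 ± 4.86 TPM. With Sox11 K91A the order of the 5 highest genes was the same as with Sox11, *Pmaip1* at 23.0 ± 4.76, *Bak1* at 22.0 ± 0.898 and *Bcl2l11* at 21.4 ± 2.43 TPM overlapped as neighbours, and *Bcl2* was ninth at 13.4 ± 2.27 TPM.

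Pro-survival and pro-death genes were then compared as summed TPM in each library, as a description without a test. The pro-survival sum hardly differed between groups, at 278 and 243 TPM in the control, 295 and 274 TPM with Sox11 and 291 and 273 TPM with Sox11 K91A. The sum of the BH3-only genes was 129.8 and 162 TPM in the control, 232 and 299.5 TPM with Sox11 and 266 and 219 TPM with Sox11 K91A, so every transduced library was above both controls. Most of this sum in each library came from *Bbc3*, which was not called with either virus over all 6 libraries. *Bbc3* was at 104 and 137 TPM in the control, 175 and 220.3 TPM with Sox11 and 208 and 172 TPM with Sox11 K91A. The effector sum was 211 and 303 TPM, 284 and 273 TPM, and 307 and 273 TPM in the same order, and overlapped between all groups.

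The ratio of pro-survival to BH3-only TPM was 2.14 and 1.50 in the control, 1.27 and 0.915 with Sox11 and 1.09 and 1.25 with Sox11 K91A, with group means of 1.82 ± 0.457, 1.09 ± 0.254 and 1.17 ± 0.108 (SD, n = 2). Both transduced groups lay below the control without overlap, with only the 4 BH3-only genes of the set counted. BH3-only genes outside the set, such as *Bad* and *Bmf*, were left out. *Bad* stood at 82.6 and 88.5 TPM in the control. It was lower with both viruses, at 58.9 and 56.0 TPM with Sox11 and 64.6 and 71.2 TPM with Sox11 K91A. *Bmf* was higher, at 9.14 and 6.86 TPM in the control and between 16.6 and 22.4 TPM with either virus. Adding *Bad* and *Bmf* to the BH3-only sum of each library puts control replicate 2 just below Sox11 replicate 1 in this ratio. The control and Sox11 then overlap, while both Sox11 K91A libraries stay below the control. Other BH3-only genes were not added. With only the effectors added to the 4 BH3-only genes of the set, the ratio was 0.816 and 0.523 in the control. It was 0.572 and 0.479 with Sox11 and 0.508 and 0.554 with Sox11 K91A. On this measure control replicate 2 lay among the transduced libraries, and the log2 change against the control was -0.32 with Sox11, beside a spread between replicates of 0.35 (SD), and -0.30 with Sox11 K91A, beside a spread of 0.33. Without control replicate 1 these changes were 0.00 and 0.02, and without control replicate 2 they were -0.64 and -0.62, so a single control library set their size.

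**Figure D3:**
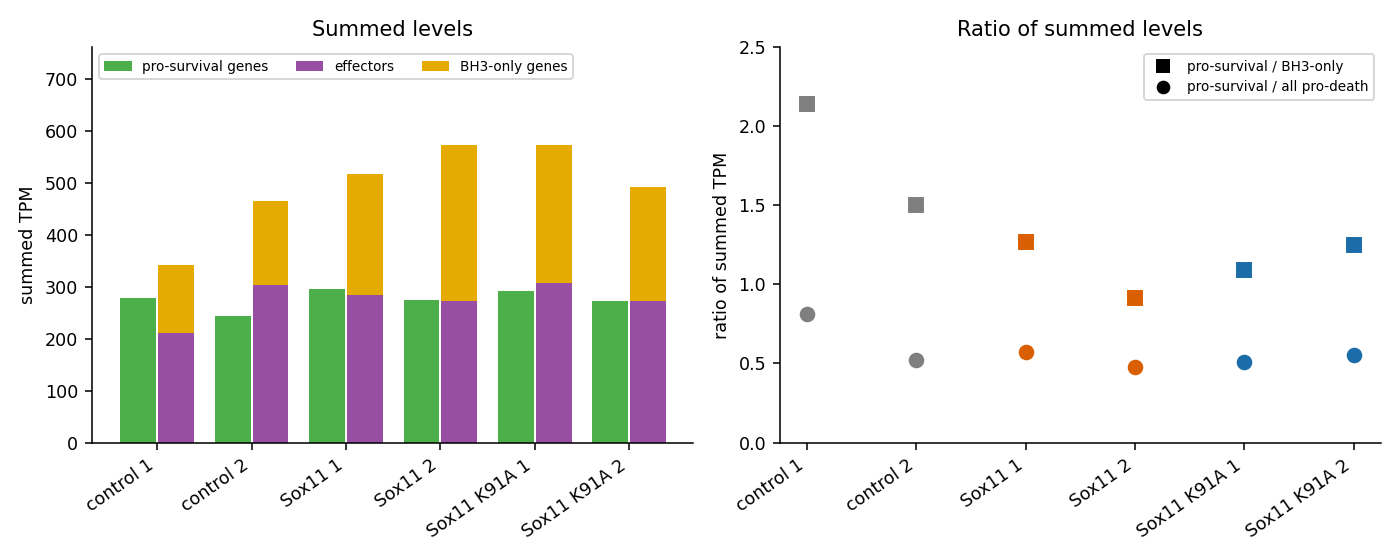
Left, summed TPM of the 4 pro-survival genes, the 2 effectors and the 4 BH3-only genes (vertical axis) in each library, with the BH3-only genes stacked on the effectors. Right, ratio of summed pro-survival TPM in each library to that of these 4 BH3-only genes (squares) or all 6 pro-death genes (circles). *Bad*, *Bmf* and other BH3-only genes outside the set are not counted. With *Bad* and *Bmf* counted, the square of control replicate 2 would lie just below that of Sox11 replicate 1. The squares fall from 2.14 and 1.50 in the control to between 0.915 and 1.27 with either virus, and the circles overlap between groups.

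Within the sums, the members that rose took a larger share. *Bcl2* made up 2.22% and 2.25% of the pro-survival TPM in the control, 4.28% and 7.12% with Sox11 and 5.16% and 4.32% with Sox11 K91A. *Pmaip1* made up 1.29% and 1.98% of the BH3-only TPM in the control, 11.3% and 11.1% with Sox11 and 9.92% and 8.96% with Sox11 K91A. The ratio of *Bcl2* to *Bax* TPM was 0.0327 and 0.0194 in the control, 0.0491 and 0.0786 with Sox11 and 0.0528 and 0.0468 with Sox11 K91A, without overlap between the control and either virus. The share of BH3-only genes in the pro-death TPM was 38.1% and 34.9% in the control and between 44.5% and 52.3% in the 4 transduced libraries.

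Between Sox11 K91A and Sox11, which asks whether the site of SUMO attachment changes the response, none of the 10 members was called. In limma-voom and in edgeR 0 genes of 15747 were called (0%), and DESeq2 called 2 genes and no member. In limma-voom 108 genes (0.686%) had an unadjusted p under 0.05. If no gene differed, a fraction of about 0.05 would be awaited, so this low share is not read as likeness of the viruses. The adjusted p was 1.000 for each member. The log2 difference, Sox11 K91A minus Sox11, was -0.34 for *Pmaip1* (interval -0.90 to 0.23), -0.21 for *Bcl2* (-0.74 to 0.32), -0.37 for *Bcl2l11* (-1.03 to 0.29) and -0.06 for *Bbc3* (-0.68 to 0.55). For the remaining 6 genes it lay between -0.14 and 0.12. *Bak1* was the only member whose libraries did not overlap between the 2 viruses, at 18.8 and 18.2 CPM against 18.9 and 19.7 CPM, beside 13.4% of all genes lower without overlap. Sox11 mRNA itself differed by a log2 value of -0.34 (SE 0.34, adjusted p = 1.000). The widest of these intervals, that of *Bcl2l11*, reaches as far as the fitted change of several members against the control, so these libraries do not show that the 2 forms act alike on the family.

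The rest of the BCL2 family was read from a list of 15 further genes, of which 10 were tested. With Sox11, 2 rose and 1 fell, beside 20.1% of all genes called, and with Sox11 K91A 2 rose and 0 fell, beside 10.6%. These shares are the background of the lists that follow too, and nothing about a list is read from its count. *Bmf*, a BH3-only gene, was at 17.2 and 12.6 CPM in the control, 37.9 and 41.8 CPM with Sox11 and 39.2 and 37.8 CPM with Sox11 K91A, and rose by a log2 value of 1.46 (adjusted p = 0.011) and 1.41 (adjusted p = 0.016). *Bok*, an effector-like member, was at 15.0 and 16.1 CPM, 38.6 and 32.6 CPM, and 40.7 and 36.0 CPM, and rose by 1.18 (adjusted p = 0.013) and 1.30 (adjusted p = 0.016). In both genes all 4 transduced libraries lay above both controls. *Bad*, a BH3-only gene controlled mainly by phosphorylation, was at 33.8 and 39.5 CPM in the control and 25.1 and 22.7 CPM with Sox11, where it fell by 0.62 on the log2 scale (adjusted p = 0.037), and at 28.1 and 30.2 CPM with Sox11 K91A (log2 -0.33, adjusted p = 0.197). *Bcl2a1a*, *Bcl2a1b* and *Bcl2a1d*, pro-survival genes of blood cells, had 0 counts in every library.

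Downstream of mitochondria, 13 apoptosome and caspase genes were listed and 8 tested. With Sox11, 2 rose and 1 fell, and with Sox11 K91A 1 rose and 0 fell. *Apaf1*, the scaffold of the apoptosome, was at 29.4 and 38.1 CPM in the control, 84.8 and 110.4 CPM with Sox11 and 93.0 and 70.2 CPM with Sox11 K91A, and rose by a log2 value of 1.52 (adjusted p = 0.013) and 1.26 (adjusted p = 0.024). *Casp2*, an initiator caspase, was at 12.1 and 14.2 CPM, 26.0 and 43.0 CPM, and 26.5 and 24.8 CPM, and rose with Sox11 by 1.35 (adjusted p = 0.022), with 0.96 (adjusted p = 0.072) under Sox11 K91A. *Cycs*, which encodes cytochrome c, fell with Sox11 by 0.67 on the log2 scale (adjusted p = 0.028), from 169.8 and 205 CPM to 119.7 and 114 CPM, and stood at 119 and 134 CPM with Sox11 K91A (log2 -0.56, adjusted p = 0.061).

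A further list held inhibitors of apoptosis, mitochondrial proteins that oppose them and other mitochondrial proteins of cell death, such as the product of *Endog*. Of its genes 10 were tested, and 0 rose and 1 fell with each virus. That gene was *Endog*, a mitochondrial nuclease, at 20.7 and 19.7 CPM in the control, 9.65 and 5.01 CPM with Sox11 and 8.35 and 9.64 CPM with Sox11 K91A (log2 -1.56, adjusted p = 0.018, and -1.17, adjusted p = 0.042).

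Of 13 transcription factors known to activate BH3-only genes, 12 were tested. With Sox11, 2 rose and 1 fell, and with Sox11 K91A 1 rose and 1 fell. *Trp53*, which encodes p53, was at 21.1 and 20.0 CPM in the control. With Sox11 it was at 34.7 and 32.8 CPM, and with Sox11 K91A at 35.7 and 34.9 CPM. It rose by a log2 value of 0.72 (adjusted p = 0.022) and 0.78 (adjusted p = 0.026), with the transduced libraries close together. *Jun*, the factor through which stress kinases act in injured RGCs, was at 239 and 276 CPM in the control, 123 and 142 CPM with Sox11 and 99.3 and 154 CPM with Sox11 K91A, and fell by 0.96 (adjusted p = 0.031) and by 1.05 (adjusted p = 0.036) on the log2 scale. *Mybl1*, a MYB family factor, was at 5.69 and 7.26 CPM in the control and 12.5 and 13.6 CPM with Sox11, where it rose by 1.00 (adjusted p = 0.025), and at 12.3 and 11.5 CPM with Sox11 K91A (0.87, adjusted p = 0.051). In none of these 4 lists was a gene called between the 2 viruses.

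Many of these calls rested on single libraries or settings. All those with Sox11 were lost without Sox11 replicate 2, and all those with Sox11 K91A without control replicate 2, the fits that called 0 genes. Over the 20 alternatives, the Sox11 call of *Bad* was lost in 10 (adjusted p up to 0.224), that of *Cycs* in 8 (up to 0.173), that of *Trp53* in 6 and those of *Jun* and *Mybl1* in 5 each. The calls of *Casp2* and *Apaf1* with Sox11 were lost in 4 and 3, and those of *Bmf*, *Bok* and *Endog* in 1 each. With Sox11 K91A the call of *Endog* was lost in 8 (up to 0.362), those of *Apaf1* and *Jun* in 4 each, those of *Bmf* and *Trp53* in 3 each and that of *Bok* in 2. Without control replicate 2 and Sox11 replicate 2, the counts of genes that rose and fell with Sox11 were 3 and 0 for the further family members, 2 and 0 for the apoptosome and caspases, 0 and 1 for the inhibitors and antagonists, and 2 and 2 for the transcription factors. With Sox11 K91A they were 3 and 0, 2 and 1, 1 and 2, and 2 and 3.

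**Figure D4:**
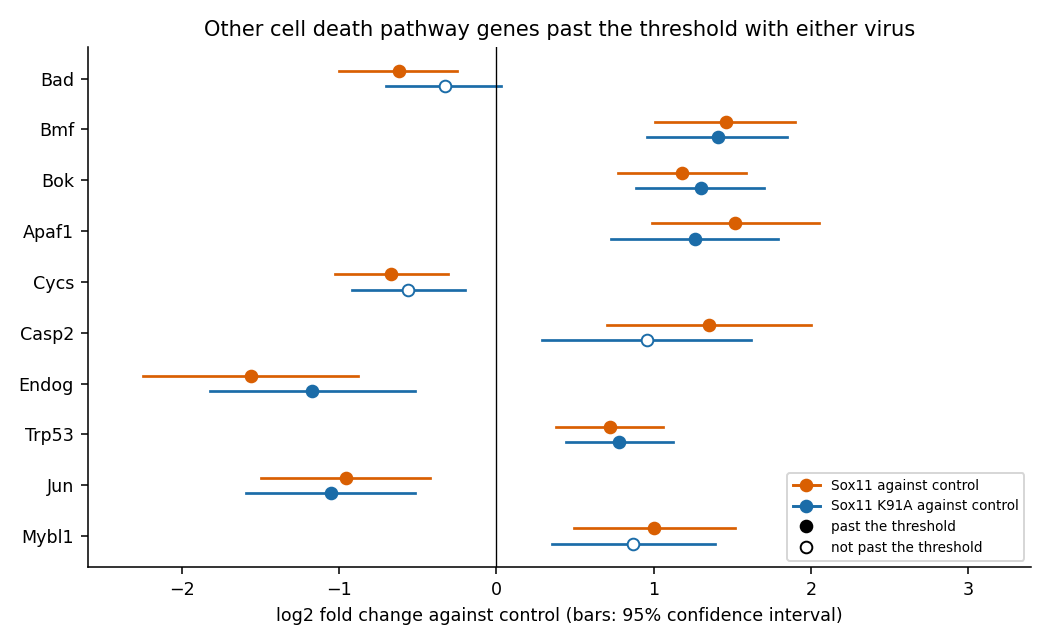
Log2 fold change against the control (horizontal axis) of the 10 genes of the 4 further lists that passed the threshold with at least 1 virus, from limma-voom, with bars for the 95% confidence interval and filled points for genes past the threshold. *Bmf*, *Bok*, *Apaf1* and *Trp53* are higher and *Endog* and *Jun* lower with both viruses, while *Bad*, *Cycs*, *Casp2* and *Mybl1* pass the threshold with Sox11 only, a difference between the viruses that was not called for any of them.

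Levels of several cell type markers differed between the groups. The summed level of 8 RGC markers was 10249 and 9479.9 CPM in the control, 6477 and 3933 CPM with Sox11 and 5182 and 6791 CPM with Sox11 K91A. Most of this sum was *Nefl*, at 7086 and 6345 CPM, 4104 and 2188 CPM, and 3096 and 4328 CPM in the same order. With Sox11 3 of the 8 fell (*Slc17a6*, *Thy1* and *Nefl*), with Sox11 K91A 1 (*Slc17a6*), and the RGC transcription factor genes *Pou4f1*, *Pou4f2* and *Isl1* and the gene *Rbpms* were not called, with log2 fold changes between -0.32 and 0.08. *Thy1*, the gene of the antigen used for purification, was at 725 and 689 CPM in the control, 259 and 46.3 CPM with Sox11 and 154 and 312 CPM with Sox11 K91A. The summed level of 5 amacrine cell markers was 221 and 93.5 CPM in the control and between 31.7 and 91.1 CPM with either virus, but the 5 did not move together. *Slc6a9*, a glycine transporter gene, fell with both viruses (log2 -2.14, adjusted p = 0.018, and -1.75, 0.034), and *Gad2*, the highest of the 5 in each library, was at -1.63 and -1.44 without passing the test. *Tfap2a* was at 2.06 and 2.62, *Slc32a1* at 0.22 and 1.25 and *Gad1* at -0.59 and 1.06, none of them past it. The 6 glial markers summed to 108 and 103 CPM in the control and between 269 and 313 CPM with either virus, nearly all from *Glul*, which rose, while *Gfap* had 0 counts in every library and *Slc1a3* stayed at or below 1.01 CPM. Microglial, photoreceptor and dividing cell markers summed to at most 1.43, 2.05 and 4.12 CPM, and fibroblast markers to 19.3 CPM in Sox11 replicate 2 and between 5.20 and 9.80 CPM in the others. Endothelial and mural markers summed to 5.58 and 4.70 CPM in the control and between 7.54 and 11.6 CPM with either virus, and *Pecam1*, an endothelial gene, rose with Sox11 K91A (log2 2.03, adjusted p = 0.047), from 0.501 and 0.389 CPM to 2.23 and 1.47 CPM. In bulk RNA, fewer cells of a type, less RNA per cell and a changed level of single marker genes within cells cannot be told apart. The part of these shifts in the changes of *Bcl2*, *Pmaip1* and the other genes was not tested.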

How the data were processed

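RNA-seq of 6 libraries of cultured mouse RGCs was used, 2 for each of 3 groups taken from the sample labels. The authors aligned the reads to mm10 with STAR, counted them with RSEM on DNAnexus and deposited 1 table per library, with expected counts per gene that were not normalized (from 80.9% to 82.8% of nonzero values were whole), TPM values scaled by RSEM, and gene lengths. For STAR and RSEM no version is given in the sources used here, and neither is the annotation or whether strand was used. Replicates were not merged in these tables. The study's methods describe replicate wells and 3 RNA samples sequenced in duplicates, without saying whether wells were pooled. Symbols came from GENCODE M21.

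Expected counts were rounded, filtered with filterByExpr of edgeR (version 4.0.16), which kept 15747 genes, and scaled with TMM factors between 0.985 and 1.04. Groups were compared two-sided with limma-voom (limma 3.58.1, R 4.3.3) on all 6 libraries without a covariate. P-values were adjusted over all of these genes (Benjamini-Hochberg), and a call needed FDR < 0.05 and a fold change beyond 1.2 in either direction, as in the study's methods. Adjusted p-values and intervals come from this fit unless another is named, and errors after ± are SD over 2 replicates. The test was run before use on simulated counts of independent libraries. That check does not show that its error rate holds in these data. Summed TPM and their ratios were described without a test.

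The alternatives were edgeR's quasi-likelihood test, DESeq2 (1.42.0), sample quality weights, log2(TPM + 1) and log2(TPM + 0.1), other scalings, filters and thresholds, counts without rounding, a fit with 2 groups alone, a replicate block, a block for or removal of the 2 libraries with low *Xist*, and leaving out each replicate. Promoter sequences and windows are those of RefSeq on GRCm38.p6. Named were all 10 members, each gene of the further lists past the threshold against the control, and Sox11, except 1 gene that is not reported here and was left out of its list's counts. The members and lists were chosen with earlier results of these data known. Plots were drawn with matplotlib 3.10.9 under Python 3.11.15.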

Additional observations from a re-analysis of the deposited data

How the results depend on the processing

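With Sox11, the count of 2 members called became 4 with DESeq2 (27.5% of all genes called), 4 with a block for both low *Xist* libraries (29.0%) and 4 without them (13.1%), beside 20.1% in the reported fit, and between 0 and 3 when each replicate was left out. With Sox11 K91A it became 3 with DESeq2 (20.0%), 1 with sample quality weights (8.89%), 1 on log2(TPM + 1) (5.94%), 1 on log2(TPM + 0.1) (5.69%), 4 with the low *Xist* block (18.4%) and 5 without those libraries (25.8%), beside 10.6%, and between 0 and 2 with each replicate left out. Between the viruses it was 0 in every fit. The log2 change of the ratio of summed pro-survival to pro-death TPM with Sox11, -0.32, was -0.73 with BH3-only genes alone on the death side. With each replicate left out it lay between -0.64 and 0.00 with Sox11, between -0.62 and 0.02 with Sox11 K91A, and between -0.11 and 0.15 between the viruses. Of 600 alternative values of single members over 20 fits, 550 neither turned sign nor changed call, 12 lost the call, 15 gained it and 23, all of values not called, turned sign. The 550 include the 20 values of *Bcl2l2* between the viruses, between -0.23 and 0.19. Its value in the reported fit was 0, so it had no sign to turn.

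Signs turned with Sox11 for *Bax* (-0.01 with edgeR, -0.02 with DESeq2, -0.31 without control replicate 1, -0.02 without Sox11 replicate 1), *Bcl2l1* (-0.02 without Sox11 replicate 1), *Bak1* (-0.10 without the low *Xist* libraries, -0.08 without control replicate 2) and *Hrk* (0.01 and 0.14 in the same fits). They turned with Sox11 K91A for *Bax* (-0.19 without control replicate 1), *Bak1* (0.05 with either TPM pseudocount, 0.07 without control replicate 1) and *Hrk* (0.01 without the low *Xist* libraries). Between the viruses they turned for *Bcl2* (0.10 without the low *Xist* libraries, 0.09 without Sox11 replicate 2), *Bcl2l11* (0.07 in both), *Bbc3* (0.19 with the low *Xist* block, 0.11 without those libraries, 0.11 without Sox11 replicate 2, 0.13 without Sox11 K91A replicate 2) and *Hrk* (0.07 with the block). With each replicate left out, these values ranged with Sox11 from -0.31 to 0.37 for *Bax*, -0.02 to 0.20 for *Bcl2l1*, -0.08 to 0.13 for *Bak1* and -0.35 to 0.14 for *Hrk*, with Sox11 K91A from -0.19 to 0.50 for *Bax* and -0.13 to 0.07 for *Bak1*, and between the viruses from -0.50 to 0.09 for *Bcl2*, -0.78 to 0.07 for *Bcl2l11* and -0.25 to 0.13 for *Bbc3*. The cause was not tested, and scaling alone turned none.

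Replicate numbers come from the sample titles. The deviations of libraries with the same number had a correlation of 0.296 for Sox11 and control, -0.054 for Sox11 K91A and control and -0.421 for the viruses, so the number was not taken to pair the libraries, although replicate 2 of the control and of Sox11 share low *Xist*. With the replicate number as a block, 2, 2 and 0 members were called in the same order, from 2679, 1402 and 0 genes. The crossed pairing of the viruses, chosen after seeing the data, called 0 members and 3 genes. With 2 libraries per group, an effect of the size of *Bbc3* stands or falls with 1 library, and transcript levels say nothing on protein. Fits that leave a group with 1 library assume that it varies like the others.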

Other observations

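Among the 4 transduced libraries, Sox11 mRNA was highest in Sox11 replicate 2, followed by Sox11 K91A replicate 1, Sox11 replicate 1 and Sox11 K91A replicate 2. *Bcl2*, *Mcl1*, *Bcl2l11*, *Bbc3* and *Pmaip1*, which are 5 of the 10 members, had their CPM in that same order. Of 13379 genes with a mean of at least 1 CPM, 13.7% were in that order and 15.1% in its reverse, and the 4 libraries also had this order on the first principal component, so the order was shared by many other genes and is given as a description.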
